A study of Mus musculus with 2 samples.

Results

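Myod1 encodes MyoD, the basic helix-loop-helix factor that commits cells to skeletal muscle, and its surroundings were examined for GATA4 peaks in cultured mouse myoblasts. Members were all peaks of the deposited list whose centre lay in the Myod1 gene span or within 100 kb of it on either side. There were 7 of them among 17539 peaks. Myod1 (gene ID 17927) spans chromosome 7, 46376474 to 46379092, in the RefSeq annotation of GRCm38.p6.

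The list comes from chromatin immunoprecipitation and sequencing (ChIP-seq) with a mixture of 3 anti-GATA4 antibodies in 1 library, with control IgG used in 1 further library. Both used myoblasts grown from satellite cells, the stem cells of adult muscle, of the mouse strain STOCK Myf5tm1Pas/J, which carries a targeted allele of Myf5, in Ham's/F10 medium with 20% fetal serum and 20 ng/ml basic fibroblast growth factor. The zygosity of that allele, the animals' age and their number are not stated in the labels. With no replicate, values carry no error between libraries and nothing was tested between them. Read depth is unknown, and RNA was not measured, so the myoblast label was not checked against marker expression. All counts are read against the same count over all protein coding genes, as a description and not as a test.

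MyoD binds short CANNTG sequences, called E-boxes, together with E proteins, and switches on muscle genes. In mouse, Myod1 itself is known to be controlled from a promoter-proximal region, from a distal regulatory region about 5 kb upstream, and from a core enhancer that lies farther out, in textbook accounts about 20 to 25 kb upstream. The core enhancer is known for starting Myod1 expression in the embryo, and the distal regulatory region for maintaining it in myoblasts and muscle. GATA4 is a zinc finger factor best known from heart, gut and gonad that recognises GATA sequences. The files do not give coordinates for these enhancers, so only distances can be set beside the peaks.

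A transcribed landmark fixes the orientation. The gene table lists Gm45923, a long noncoding RNA gene with the synonyms DRReRNA and Munc, the RNA of the distal regulatory region, at chromosome 7, 46371403 to 46372492. It starts 5.07 kb and ends 3.98 kb from the start of Myod1 on the lower-coordinate side, which is therefore called upstream below. The sequence around its start is shown because it marks the distal regulatory region, where no GATA4 peak was listed. It is the RefSeq promoter window on the plus strand of GRCm38.p6, chr7:46371153-46371452, with matches to the E-box and to the GATA motif (AGATAA or TGATAA), searched on both strands, set in capitals.

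Gm45923 (DRReRNA, Munc): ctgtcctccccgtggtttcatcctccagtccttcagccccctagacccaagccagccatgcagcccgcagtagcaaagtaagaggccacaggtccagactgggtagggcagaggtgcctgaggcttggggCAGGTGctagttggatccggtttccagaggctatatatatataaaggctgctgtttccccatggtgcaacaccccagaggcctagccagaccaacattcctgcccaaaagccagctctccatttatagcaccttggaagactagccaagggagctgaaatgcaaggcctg

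The window held 1 E-box, CAGGTG at positions 131 to 136 counted from its 5′ end, and 0 GATA motifs. Of 32851 RefSeq promoter windows of the same length, 72.3% held an E-box and 18.6% a GATA motif, so both readings are common. The letters GGAATG, a TEAD motif, were matched once on the opposite strand at positions 225 to 230, against 14.7% of all windows with a match. The letters TGANTCA of the AP-1 motif were not in this window, against 7.81% of all windows with a match. A match of letters is a description and not a binding site.

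The 7 peaks formed an island 59.7 kb long around Myod1, with 5 upstream of the gene, 1 over its 3′ end and 1 just beyond. The highest lay 25.7 kb upstream, with a MACS score of 250. The score is the authors' own value per peak, given by the peak caller, and is compared here only within this list. No peak was listed at the Myod1 start, in the gene body before its end, or at the distal regulatory region.

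The farthest upstream peak, chr7:46321249-46321731, was centred 55.0 kb from the Myod1 start, had a score of 84.1 and was 483 bp wide. It was the only member below the list median of 99.3, and it lay closer to Otog, the gene of the inner ear matrix protein otogelin, at 10.06 kb, than to Myod1. The next, chr7:46337055-46338463, was centred 38.7 kb upstream and had a score of 126 over 1409 bp. The third, chr7:46341474-46342017, was centred 34.7 kb upstream and had a score of 124 over 544 bp. These 3 outer peaks lay outside every annotated gene and beyond the textbook distance of the core enhancer.

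At about the distance of the core enhancer lay a neighbouring pair of broad peaks. The outer one, chr7:46350056-46351482, was centred 25.7 kb upstream, had a score of 250 and was 1427 bp wide, and it held rank 732 in the list and rank 25 among the 913 peaks of chromosome 7. The inner one, chr7:46353260-46354690, was centred 22.5 kb upstream, had a score of 185 and was 1431 bp wide. The inner peak ran between 23.2 and 21.8 kb upstream and so lay wholly between 20 and 25 kb, while the outer one reached that band only at its inner edge, at 24.99 kb. The peaks were separated by 1.78 kb, a gap shorter than 91.1% of the 17518 gaps between neighbouring peaks of the list. Across all 21887 protein coding genes, 4.18% had a peak centred 20 to 25 kb from the lower-coordinate end. For the higher-coordinate end the share was 3.94%. Strand was not given for these genes, so each of these ends is the start of some genes and the far end of others.

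**Figure D1:**
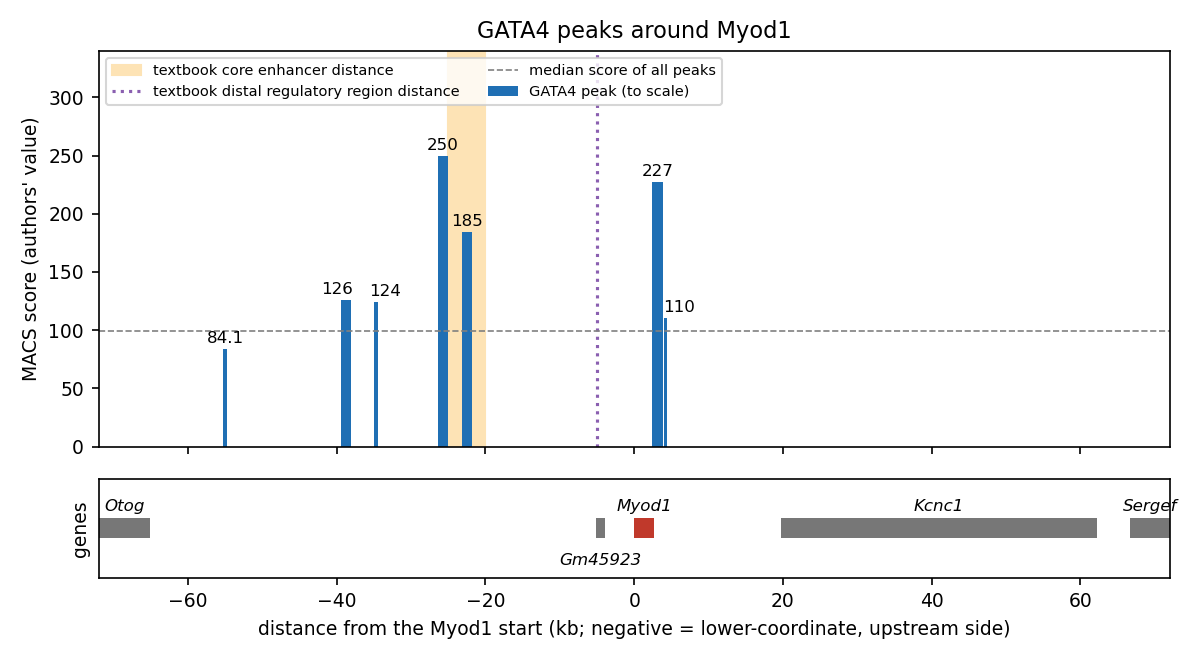
GATA4 peaks around Myod1, with distance from the Myod1 start in kb on the horizontal axis and the authors' MACS score on the vertical axis. Each bar is 1 of the 7 peaks, drawn to scale in width. The lower panel shows annotated genes, with Myod1 in red. The peaks with scores of 250 and 185 stand at or beside the shaded band of the textbook core enhancer distance, the peak of 227 stands at the gene's end, and no bar stands on the dotted line of the distal regulatory region.

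Between the inner upstream peak and the end of Myod1 lay 24.1 kb without a listed peak. This stretch holds the Gm45923 gene, the Myod1 start and most of the Myod1 gene. Gm45923 was 16.7 kb from the nearest peak upstream and 6.33 kb from the nearest one downstream. Absence from the list says that no peak passed the authors' calling there, whose threshold is not stated. Such absence is also common. Of all protein coding genes, only 15.9% had a peak centred within 20 kb of the lower-coordinate end, on the outer side. A peak lay over that end at 3.58% of them. These shares are by coordinate, so they mix gene starts with far ends and are not shares for starts. Of the gaps between neighbouring peaks of the list, 63.6% were at least as long.

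The peak at the gene's end was the broadest of the 7. It spanned chr7:46378823-46380381, had a score of 227 over 1559 bp, and covered the last 270 bp of Myod1 and the next 1289 bp beyond it. Its centre lay 3.13 kb from the Myod1 start and 0.51 kb past the gene's end. A peak over the higher-coordinate end, whatever the strand, was found at 3.49% of protein coding genes, and 3.58% had one over the lower-coordinate end. A narrow peak followed after 155 bp, chr7:46380537-46380942, with a score of 110 over 406 bp. Shorter gaps made up 1.05% of those in the list. Kcnc1, the gene of a voltage-gated potassium channel, begins 15.8 kb past the broad peak and 15.3 kb past the narrow one, so both were closer to Myod1.

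The members' widths fell into 2 ranges, a division made after the values were seen. The 4 broad ones, at 38.7, 25.7 and 22.5 kb upstream and at the gene's end, were 1409 to 1559 bp wide and stood above 97.5% to 98.8% of all peaks in width. The 3 narrow ones, at 55.0 and 34.7 kb upstream and beyond the gene's end, were 406 to 544 bp wide, below the lower quartile of the list, 589 bp. No member had a width between the quartiles of 589 and 899 bp. The broad peaks made up 80.3% of the 7.26 kb covered by members. Across the list score and width had a Spearman rho of 0.100 over 17539 peaks of 1 library, but the broadest peaks scored higher. Peaks within 10% of a broad member's width had median scores of 170 to 206, against 97.0 to 124 for those within 10% of a narrow member's width.

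The broad peaks had scores of 126, 185, 227 and 250, and the narrow ones 84.1, 110 and 124. The lowest broad score, 125.86, was barely above the highest narrow one, 124.17, so the ranges nearly met. How far scores of broad and narrow peaks overlap in the whole list was not counted. By score, the peak at 25.7 kb stood above 95.8% of the list, the one at the gene's end above 93.9% and the one at 22.5 kb above 88.7%. The other 4 members stood above 31.1% to 69.2% of the list. In all, 6 of the 7 were above the list median and 3 above its upper quartile of 138.

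Set against peaks of like width, 6 of the 7 members ranked lower than in the whole list, the exception being the narrow peak at 34.7 kb. Among the 584 peaks within 10% of its width, the peak at 25.7 kb had a higher score than 75.9%, whose median was 177. The peak at the gene's end was above 60.3% and the one at 22.5 kb above 53.1% of peaks of their widths. The broad peak at 38.7 kb was above only 21.1% of them, with its score of 126 against a median of 170 among 635 such peaks. Of the narrow peaks, the one at 34.7 kb was above 73.6%, the one beyond the gene's end above 16.8% and the one at 55.0 kb above 3.76%. Here and in the whole list only strictly lower scores were counted, so peaks with an equal score did not count. The ranks of the narrow members may depend on this, because many peaks share their scores.

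The narrow members carried scores that recur throughout the list. Exactly the score of the peak at 55.0 kb was found in 709 other peaks, that of the peak at 34.7 kb in 486 others and that of the peak beyond the gene's end in 606 others. Of all peaks narrower than 589 bp, 63.3% carried a score shared with at least 486 others, against 0.0457% of peaks wider than 899 bp. The scores of the peaks at 38.7 and 22.5 kb and at the gene's end were found in no other peak, and that of the peak at 25.7 kb in 1 other.

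**Figure D2:**
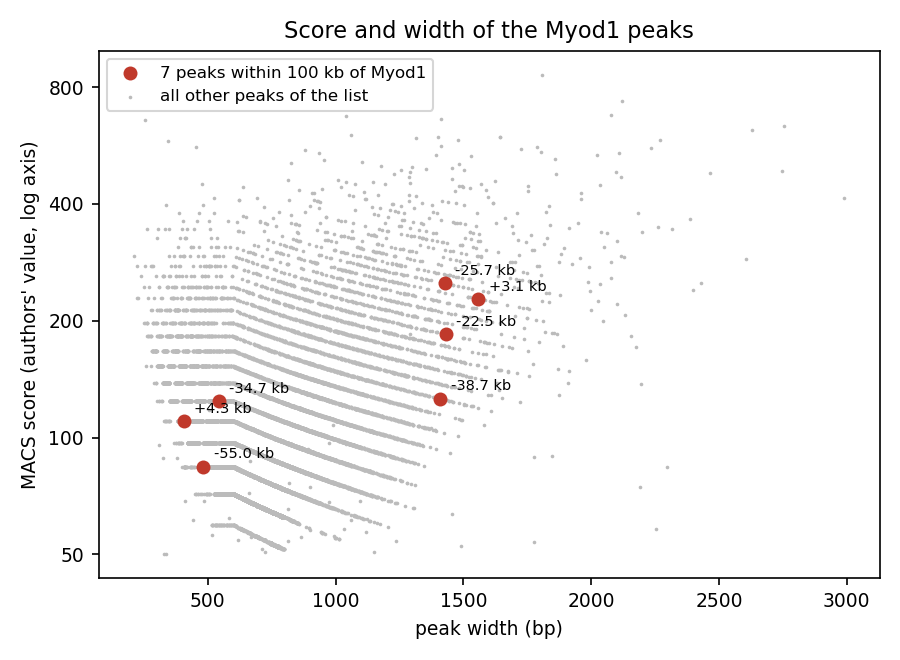
Peak width in bp on the horizontal axis and the authors' MACS score, on a log axis, on the vertical axis. Large red points are the 7 Myod1 peaks, marked with the distance of their centres from the Myod1 start, and small grey points are all other peaks of the list. The 4 broad Myod1 peaks lie between 1409 and 1559 bp with scores of 126 to 250, and the 3 narrow ones lie on flat rows of grey points that share the same score.

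The Myod1 surroundings held more peaks than those of most genes. Myod1 had 7 peaks within 100 kb, against a median of 2 and quartiles of 0 and 3 over 21887 protein coding genes, of which 6.2% had at least 7. Within 50 kb Myod1 had 6 peaks, against a median of 1 over all genes, and 3.56% of genes had at least 6. Within 10 kb it had 2, against a median of 0, and 13.4% of genes had at least 2. These windows include the gene span, so longer genes have wider windows. Among the 7925 protein coding genes shorter than 10 kb, as Myod1 is, 3.47% had at least 7 peaks within 100 kb, and among the 2030 protein coding genes of chromosome 7 the share was 3.5%.

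In peak density the window of 203 kb held 34.6 peaks per Mb (exact 95% Poisson interval 13.9 to 71.2, for counting error only). The interval takes peaks as independent, and the locus was chosen with earlier results known. It therefore does not measure an excess over the averages that follow. Chromosome 7 held 6.28 per Mb over its 913 peaks and the autosomes 7.05 per Mb. Peaks covered 3.58% of the Myod1 window and 0.544% of the autosomes. By covered length Myod1 ranked higher than by count, since only 2.33% of protein coding genes had at least 7.26 kb of peaks in the same window. Within 50 kb 1.12% of genes had at least its 6776 bp, and within 10 kb 6.74% had at least its 1965 bp. The highest score near Myod1, 250, was reached or passed within 100 kb of 5.95% of genes and within 50 kb of 3.66%. Within 10 kb its highest score was 227, which 2.59% of genes reached.

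The island lay in a stretch with no other peak. The nearest peak below it was 490 kb away, with a score of 60.2, next to Grwd1, and the nearest above it was 221 kb away, with a score of 119, inside Sergef. Of all gaps between neighbouring peaks of the list, 5.47% were at least as long as the lower one. For the upper one the share was 14.0%. Within the 100 kb rule the outermost members were thus those at 55.0 kb upstream and 1.65 kb past the gene's end, and the first peaks outside it were centred 545 kb below and 223 kb above the gene. In the 770.4 kb between those outer peaks, chr7:45831495-46601845, lay 14 whole protein coding genes, and the 7 members were the only peaks. Of the members only the broad peak at the Myod1 end overlapped an annotated gene. That the others of these 14 genes held no peak therefore follows from how the stretch was drawn and is no separate result. Kcnc1 and Otog, the direct neighbours, had 0 peaks inside and 0 centred within 10 kb, though the edge of the farthest upstream member was 9.815 kb from Otog. Such absence is the usual case, since 33.3% of protein coding genes had a peak centred in the span or within 10 kb. Gm45923 had 0 inside and 2 within 10 kb, the same 2 that lie at and past the end of Myod1.

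Assignment of the upstream peaks depends on the gene set. With all annotated genes, Myod1 was nearest to 2 of the 7 peaks, Gm45923 to 3 and Otog to 2. With protein coding genes only, Myod1 was nearest to 4, the broad pair near the core enhancer distance and both peaks at the gene's end, while Otog was nearest to the other 3. The peak at 34.7 kb lay almost midway, 30.3 kb from Otog. Distance alone does not assign a peak to a gene.

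**Figure D3:**
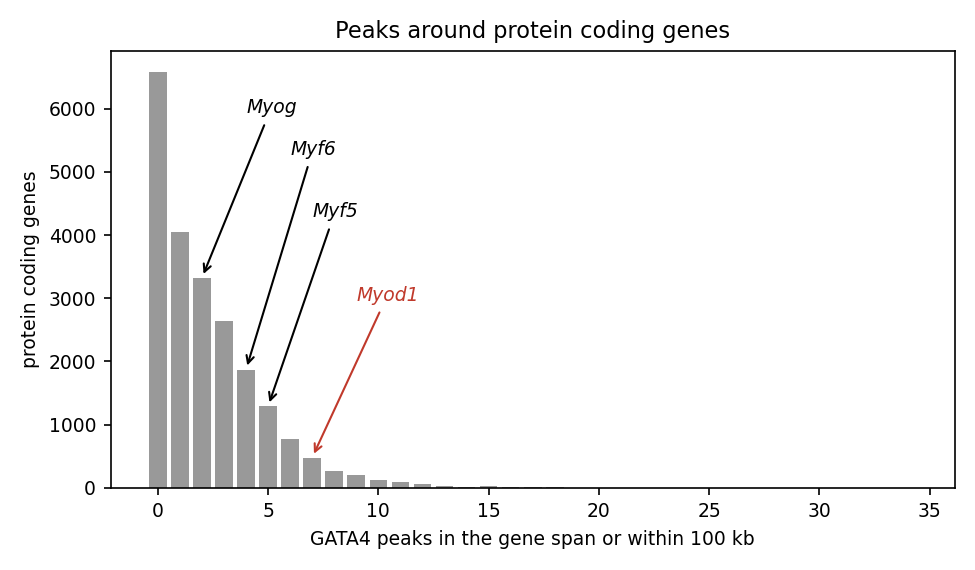
Number of GATA4 peaks in the gene span or within 100 kb on the horizontal axis and number of protein coding genes on the vertical axis. Bars cover all 21887 protein coding genes, and arrows mark Myod1 with 7 peaks, Myf5 with 5, Myf6 with 4 and Myog with 2. Myod1 stands in the tail of the distribution, where 6.2% of genes have at least as many peaks.

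Myod1 belongs to a family of 4 myogenic regulatory factors. Myf5 acts early in determination, Myf6 encodes MRF4, and Myog encodes myogenin, which acts in differentiation. Within 100 kb Myod1 had 7 peaks, Myf5 5, Myf6 4 and Myog 2. The genes Myf5 and Myf6 are neighbours on chromosome 10 and shared 4 of these peaks, so they are not separate counts, and the Myf5 locus carries the targeted allele in these cells. At least 5 peaks within 100 kb were found at 15.6% of protein coding genes, at least 4 at 24.2% and at least 2 at 51.4%.

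Set side by side, the 4 broad peaks of Myod1 were wider than any peak of its relatives, its 3 narrow ones were not, and the top scores at Myod1, Myf5 and Myf6 were close. Myod1 had scores between 84.1 and 250 and a median width of 1409 bp. The highest score at Myf5 and Myf6 was 257, from a peak 81.9 kb from Myf5 and 74.1 kb from Myf6, and the widest peak there was 1015 bp. Myog had only peaks with scores of 124 at 84.0 kb and 65.8 at 54.1 kb, both 717 to 778 bp wide. The nearest peak centre was 0.51 kb from Myod1, 8.41 kb from Myf5, 5.16 kb from Myf6 and 54.1 kb from Myog. These are 4 loci of 1 list, and no difference between them was tested.

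**Figure D4:**
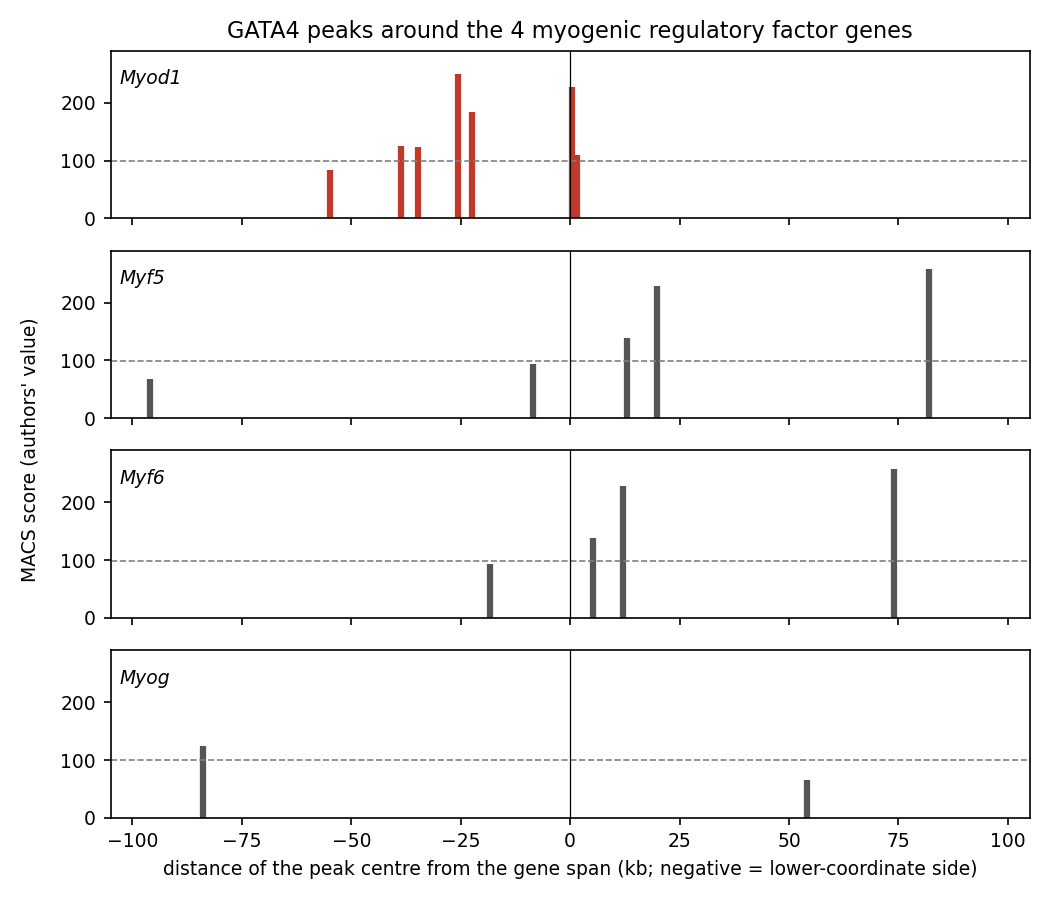
Distance of each GATA4 peak centre from the gene span in kb on the horizontal axis and the authors' MACS score on the vertical axis, with 1 panel each for Myod1, Myf5, Myf6 and Myog. Each line is 1 peak and the dashed line is the list median of 99.3. Myod1 shows 7 peaks, all on the upstream side or close to the gene's end, and Myog shows 2, both more than 50 kb away.

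Known regulators and partners of Myod1 also often had peaks nearby. A list of 20 genes held the upstream factors Pax3, Pax7, Six4, Pitx3, Foxo3, Srf and the MEF2 genes Mef2a, Mef2c and Mef2d. It also held the E protein genes Tcf3, Tcf12 and Tcf4, the inhibitors Id1, Id2, Id3, Msc and Twist1, and Kdm1a, Tead1 and Tead4. Within 10 kb 16 of the 20 had a peak, against 33.3% of protein coding genes. The windows include the gene span, and the shares over all genes were not matched to this list for gene length. Within 50 kb and within 100 kb it was 18 of 20, against 56.8% and 69.9% of all genes, with Pax3 and Twist1 the exceptions. The list's median was 2.5 peaks within 100 kb, against 2 over all protein coding genes.

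At least as many peaks within 100 kb as Myod1 were found at 5 of these 20 genes. Tead1, which encodes a partner of YAP and TAZ, had 11 peaks with a highest score of 348, and Foxo3, a forkhead factor known to act on Myod1 in mouse, had 8 with a highest score of 213. Six4, Mef2a and Id3 had 7 each, with highest scores of 153, 243 and 176. The share over all genes was 6.2%. The list was drawn up with earlier results of these data known, so this is a description. Several of its genes are much longer than Myod1, which widens their windows.

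Other genes had the same count within 50 kb and a top score near that of Myod1. Besides Myod1, 289 protein coding genes had exactly 6 peaks within 50 kb. Of these the nearest to Myod1 in highest score, 250, were Afdn with 250.2, Lekr1 with 249, Rps6kb1 with 251, Rybp with 250.8 and Rab21 with 247. Likeness was measured only by peak number and highest score in this 1 list.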

How the data were processed

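The reads were handled with CASAVA 1.8 and Bowtie on build GRCm38 (mm10), per the submitters' processing notes. MACS was run in Galaxy to call the peaks, per the file headers. Its version, threshold, treatment of duplicates and control are not stated there. The authors deposited positions and 1 value for each peak in a column without a name, taken here as the MACS score of the GATA4 library from the header and the file's name, and used as it stands. Starts were converted to 1-based positions. Per-library read counts were not analysed here. Genes and promoter sequences came from RefSeq tables of GRCm38.p6. Myod1 had no entry among the promoter sequences. Genome sequence was not used here, so the planned motif search in peaks was not run.

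Peaks were assigned by centre, and window counts were computed with Python 3.11.15, pandas 2.3.3 and numpy 2.4.6 and tested on simulated data. Poisson intervals used scipy 1.17.1. No hypothesis was tested. The members, lists and textbook distances were chosen with earlier results of these data known. Named genes were Myod1, genes of its window, its family, 20 regulators and partners (a few others are not reported here), and up to 5 genes with the same peak number within 50 kb and the nearest highest score. Alternatives were other windows, overlap in place of centres, higher-scoring peaks, width, peak edges and protein coding genes only.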

Additional observations from a re-analysis of the deposited data

How the results depend on the processing

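The 7 peaks stayed 7 with any overlap in place of centres and with distance from the start alone, and were 6 within 50 kb and among peaks above the median score. They were 2 within 10 kb and 3 above the upper quartile of the score. The share of protein coding genes with at least as many peaks, 6.2%, was 3.56% within 50 kb and 13.4% within 10 kb. It was 1.7% above the median score and 3.65% above the upper quartile. With distance from the lower-coordinate end alone it was 3.49%. That end is the start of Myod1, but strand was not given, so it is the far end of other genes. Myod1 exceeded the highest count of the other 3 family genes by 2, and by 3 within 50 kb and above the median score. The lead was 1 within 10 kb and above the upper quartile. A peak shared by Myf5 and Myf6 with a score of 138.27 lay at that quartile, 138.3, and was not counted as above it. The lead there therefore depends on the exact cutoff. The members' median percentile in the list was 69.2 by score and 97.5 by width. Between 20 and 25 kb upstream lay 1 peak by its centre and 2 by an edge. Myod1 was the nearest gene of 2 peaks, and of 4 with protein coding genes only. The causes of these shifts were not tested. No paired analysis was possible because there was 1 library for the mixture of GATA4 antibodies and 1 for IgG, and no file of the IgG library was analysed. With 1 library, unknown depth and no background from IgG, neither the reproducibility of a peak nor the absence of binding where none was listed can be judged.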
